A study of Homo sapiens with 15 samples.

Results

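The expression of 8 androgen receptor coregulators, NCOA1, NCOA2, NCOA3, EP300, CREBBP, MED1, NCOR1 and NRIP1, was compared between LNCaP cells given R1881, a synthetic androgen, and cells given R1881 together with enzalutamide. The genes were taken by symbol from a table of 17272 genes, and all 8 had a row. LNCaP is an established line of human prostate cancer cells that responds to androgen, and enzalutamide is an antagonist of the androgen receptor. All cells were starved for 2 days in medium with charcoal-stripped serum and harvested after 22 h of treatment. The R1881 group held 10 libraries of cells given 1 nM R1881 with DMSO, the solvent control. The R1881 + enzalutamide group held 5 libraries of cells given 1 nM R1881 and 2 µM enzalutamide. No group lacked R1881, so the data compare blocked with unblocked androgen signaling in the presence of hormone. The libraries come from a single cell line, and the methods call them biological replicates.

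The androgen receptor activates or represses genes through coregulators that it recruits to chromatin. The p160 coactivators NCOA1, NCOA2 and NCOA3 dock on the hormone-bound receptor through short leucine-rich motifs and bring in the acetyltransferases p300 (EP300) and CBP (CREBBP), which acetylate histones. MED1 is a subunit through which the Mediator complex contacts nuclear receptors. NCOR1 is a scaffold that carries a histone deacetylase to receptors that are unbound or antagonist-bound, and NRIP1, also called RIP140, is a corepressor that binds agonist-bound receptors.

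The values are scaled read counts (CPM) as deposited, with library sizes rescaled by the authors. Library sums differed between treatments without overlap, from 1053406 to 1078567 with R1881 and from 985580 to 1008992 with R1881 + enzalutamide. Small changes therefore depend on this scaling. Between 15830745 and 25416052 reads per library were recovered from these values, and each coregulator was covered by between 570 and 5801 reads in every library. The limma test was run on log2(CPM + 0.5) over 17046 genes with a mean of at least 0.5 CPM, so that log2 fold changes are on that scale, and p-values were adjusted over all of these genes with the Benjamini-Hochberg method. KLK3, which encodes prostate-specific antigen and is a classical androgen target, fell by 3.55 on the log2 scale with enzalutamide, and the androgen targets KLK2 and TMPRSS2 had log2 fold changes of -4.87 and -3.56. All 9 luminal prostate markers had a row, with a summed level of 7910 to 9190 CPM with R1881 and 3670 to 3800 CPM with R1881 + enzalutamide. None of 4 immune markers had a row, and the summed level of the basal, fibroblast and endothelial markers with a row (1 of 3, 2 of 5 and 1 of 3) was at most 13.9 CPM in each library. The fibroblast markers COL1A1 and LUM were higher with enzalutamide, with a sum of 4.61 to 8.55 CPM with R1881 and 8.89 to 13.9 CPM with R1881 + enzalutamide, and their part in the results was not tested.

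With enzalutamide, the p160 coactivators and CREBBP were higher, and NCOR1 was lower. EP300 was also lower, by a call that depended on the scaling and on the libraries included. No change of MED1 or NRIP1 passed the test. The R1881 + enzalutamide libraries carried numbers of a series of their own (81 to 85). Treatment and number series cannot be told apart for any of the 8 genes. With a threshold of 0.05 on the adjusted p from limma, 4 of the 8 coregulators were higher (NCOA1, NCOA2, NCOA3 and CREBBP) and 2 were lower. Such calls were frequent in this comparison, since 62.5% of all genes tested passed, 29.8% as higher and 32.7% as lower. The libraries of the treatments did not overlap for NCOA1, NCOA2, NCOA3, CREBBP and NCOR1, as was the case for 37.2% of all genes (17.1% higher and 20.1% lower with enzalutamide). Fewer cells expressing a gene and less RNA per cell cannot be told apart in bulk RNA. In the plot of CPM by library, the p160 coactivators and CREBBP lie above the R1881 libraries and NCOR1 below them.

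**Figure D1:**
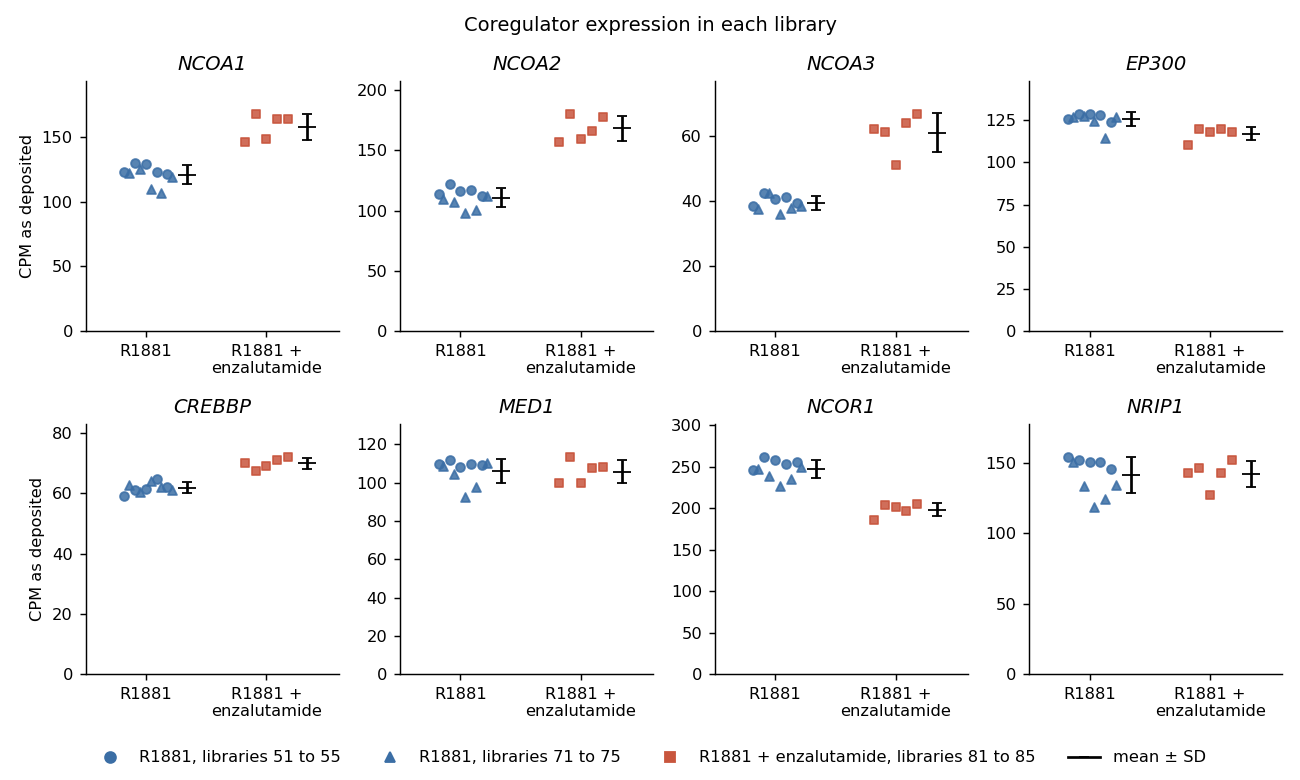
CPM of each coregulator in every library (y axis, starting at 0) by treatment (x axis), with circles and triangles for the R1881 libraries 51 to 55 and 71 to 75, squares for the R1881 + enzalutamide libraries, and bars for the mean and SD. NCOA1, NCOA2, NCOA3 and CREBBP do not overlap between treatments and are higher with enzalutamide, and NCOR1 is lower in all 5 of these libraries.

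The promoters of coregulators that moved are shown first, since transcription factors bind in this part of a gene. The 250 bases before the start of transcription were taken from RefSeq (GRCh38.p14) for 7 of the 8 genes, at the start of the canonical transcript. The windows of NCOA1 and NCOA3, which rose, and of NCOR1, which fell, are given 5′ to 3′ on the strand of the gene, with capitals for each match of a searched motif. They lie at chr2:24491004-24491253 (plus strand), chr20:47501637-47501886 (plus strand) and chr17:16215535-16215784 (minus strand).
NCOA1: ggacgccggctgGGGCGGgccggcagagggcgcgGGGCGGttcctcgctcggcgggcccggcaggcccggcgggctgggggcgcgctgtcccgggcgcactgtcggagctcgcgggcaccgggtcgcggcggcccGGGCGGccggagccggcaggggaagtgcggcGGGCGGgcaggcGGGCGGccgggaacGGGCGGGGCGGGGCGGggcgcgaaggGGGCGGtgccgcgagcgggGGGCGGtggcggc
NCOA3: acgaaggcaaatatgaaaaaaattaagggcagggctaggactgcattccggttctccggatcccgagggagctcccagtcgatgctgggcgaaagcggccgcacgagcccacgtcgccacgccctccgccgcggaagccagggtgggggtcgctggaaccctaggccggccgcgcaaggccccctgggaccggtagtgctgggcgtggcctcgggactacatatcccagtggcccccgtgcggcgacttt
NCOR1: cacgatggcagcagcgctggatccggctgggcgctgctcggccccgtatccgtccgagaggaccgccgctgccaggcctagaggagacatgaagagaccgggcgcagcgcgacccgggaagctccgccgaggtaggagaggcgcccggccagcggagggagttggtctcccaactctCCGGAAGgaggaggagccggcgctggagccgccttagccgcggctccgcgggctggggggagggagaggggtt

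Each window was searched on both strands for the hexamer AGAACA of the androgen response element, the palindromic androgen response element, which contains that hexamer, the GC box GGGCGG, the ETS site CCGGAAG, the cAMP response element TGACGTCA, the E2F site TTTGGCGC and the CCAAT box. The GC box occurred 10 times in the window of NCOA1, where some matches overlap, 4 times in that of NRIP1 and 3 times in that of CREBBP, and 42.6% of 35116 windows of the same length held at least 1. NCOR1 had 1 ETS site, a motif found in 8.52% of the windows, and MED1 had 1 CCAAT box, found in 32.0%. The hexamer AGAACA was in none of the 7 windows and in 12.4% of all windows. The palindrome was in 0.00285% of all windows and in none of the 7, and the same held for the E2F site (0.550% of all windows) and the cAMP response element (1.65%). GC content of the 7 windows ranged from 50.4% (MED1) to 87.2% (NCOA1), beside a median of 58.0% over all windows. These matches describe the letters of the windows only.

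NCOA3, a p160 coactivator known for its amplification in breast cancer, had the highest fold change. NCOA3 lies on the plus strand of chromosome 20 from 47501887 to 47656877 of GRCh38, with 23 exons in its canonical transcript. In the R1881 libraries NCOA3 ranged from 35.9 to 42.5 CPM with a median of 38.97 CPM. The 5 R1881 + enzalutamide libraries, in the order of their replicate number, held 61.1, 51.0, 62.0, 66.7 and 63.9 CPM. All 5 libraries were above the highest R1881 library, and replicate 2 was the lowest of them. Mean NCOA3 was 39.4 ± 2.19 CPM with R1881 alone (SD, n = 10) and 60.9 ± 5.98 CPM with the combination (SD, n = 5). The log2 fold change was 0.62 with a standard error of 0.055 (limma, adjusted p = 3.70e-09).

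NCOA2, the p160 coactivator that is recurrently gained in prostate cancer, rose to a similar degree. The gene spans 70109782 to 70403808 of chromosome 8 (minus strand). NCOA2 ranged from 97.6 to 122 CPM with R1881, with a median of 112 CPM. The R1881 + enzalutamide libraries held 180.3, 159.6, 157, 178 and 166 CPM, each above every R1881 library. The mean of 111 ± 7.50 CPM (SD, n = 10) increased by 51.7%, to 168 ± 10.5 CPM (SD, n = 5), which is 0.60 on the log2 scale with a standard error of 0.049 (limma, adjusted p = 9.89e-10).

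NCOA1, the founding p160 coactivator, spans 24491254 to 24770702 of chromosome 2 (plus strand) and rose less. Its R1881 libraries ranged from 107 to 129.7 CPM with a median of 122 CPM. With enzalutamide the libraries held 168, 148, 146, 163 and 163 CPM, again without overlap. The mean of 121 ± 7.47 CPM (SD, n = 10) rose to 158 ± 9.90 CPM (SD, n = 5), or by 0.38 on the log2 scale with a standard error of 0.047 (limma, adjusted p = 4.49e-07). For each of the p160 genes a two-sided exact permutation test with all 3003 ways to regroup the 15 libraries gave p = 0.000333, the smallest p this design allows.

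Among all genes tested, 8.22% had a log2 fold change at least as high as that of NCOA3, 8.66% at least as high as NCOA2 and 15.6% at least as high as NCOA1. For CREBBP, described next, this share was 29.8%. A log2 fold change at least as low as that of NCOR1 was found for 20.5% of genes, and for EP300 the share was 39.9%.

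The acetyltransferases p300 and CBP are close paralogs, and their mRNAs differed in response. CREBBP rose, whereas EP300 was lower by a call that depended on the scaling and on the libraries included. CREBBP spans 3725054 to 3880713 of chromosome 16 (minus strand). It ranged from 58.96 to 64.9 CPM with R1881, with a median of 61.7 CPM. The R1881 + enzalutamide libraries held 67.5, 68.9, 69.9, 72.1 and 71.0 CPM and lay above every R1881 library. Mean CREBBP was 61.9 ± 1.71 CPM with R1881 alone (SD, n = 10) and 69.9 ± 1.77 CPM with the combination (SD, n = 5). The increase was 0.17 on the log2 scale with a standard error of 0.032 (limma, adjusted p = 8.12e-05), and exceeded the spread between libraries.

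EP300, on the plus strand of chromosome 22 from 41092592 to 41180077, ranged from 114 to 129 CPM with R1881, with a median of 127 CPM. With enzalutamide the libraries held 119, 118, 110.3, 118 and 119.5 CPM. The groups overlapped, since R1881 replicate 5, at 114 CPM, lay below 4 of the 5 R1881 + enzalutamide libraries, while the other R1881 libraries lay at or above 124 CPM. Mean EP300 was 125 ± 4.17 CPM with R1881 alone (SD, n = 10) and 117 ± 3.83 CPM with the combination (SD, n = 5). The difference on the log2 scale was -0.10 with a 95% interval of -0.17 to -0.03 (limma, adjusted p = 0.0112). The call of EP300 depended on the scaling and on the libraries included, and was lost in 1 of 15 omissions of a single library. With all libraries scaled to the same total the log2 fold change was -0.01 (adjusted p = 0.846 from limma), and without R1881 + enzalutamide replicate 3, the lowest library, it was -0.08 (adjusted p = 0.0510 from limma).

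MED1 spans 39404285 to 39451272 of chromosome 17 (minus strand). It ranged from 92.5 to 112 CPM with R1881, with a median of 109 CPM, and the R1881 + enzalutamide libraries held 113, 99.6, 99.6, 108 and 108 CPM. The groups overlapped over most of their range. Mean MED1 was 106 CPM in both groups, with an SD of 6.29 CPM over the 10 R1881 libraries and 6.04 CPM over the 5 others. The difference of -0.01 on the log2 scale did not pass the test (adjusted p = 0.913 from limma), and its 95% interval of -0.10 to 0.09 corresponds to a ratio between 0.932 and 1.06.

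NCOR1 was the most highly counted of the 8 genes with R1881 and the corepressor that fell. The gene spans 16029065 to 16218185 of chromosome 17 (minus strand), with 46 exons in its canonical transcript. In the R1881 libraries NCOR1 ranged from 227 to 262 CPM, with a median of 248 CPM. The R1881 + enzalutamide libraries held 203, 201, 186, 205 and 196 CPM, each below every R1881 library. Its mean was 247 ± 10.9 CPM with R1881 alone (SD, n = 10) and 198 ± 7.75 CPM with the combination (SD, n = 5). The difference on the log2 scale was -0.32 with a standard error of 0.036 (limma, adjusted p = 1.29e-07). TTC19 and PIGL overlap NCOR1 on the opposite strand, and the strand setting of the counting was not stated, although the library kit was stranded. The log2 fold changes of TTC19 and PIGL were 0.03 and 0.05 (adjusted p = 0.629 and 0.521 from limma). The pseudogenes NCOR1P1 and NCOR1P2 were listed at means of 0.865 and 0.682 CPM with R1881.

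NRIP1 spans 14961235 to 15065936 of chromosome 21 (minus strand). It ranged from 119 to 154 CPM with R1881, with a median of 148 CPM. The R1881 + enzalutamide libraries held 147, 127, 143, 152 and 143 CPM, all within the range of the R1881 libraries. The log2 fold change was 0.01 (adjusted p = 0.869 from limma), with a 95% interval of -0.11 to 0.14, that is a ratio between 0.925 and 1.10. The mean of the R1881 libraries differed between their number series, which overlapped. NRIP1 was at 151 ± 3.04 CPM in libraries 51 to 55 (SD, n = 5) and at 132 ± 12.1 CPM in libraries 71 to 75 (SD, n = 5), with the R1881 + enzalutamide libraries in between at 142 ± 9.33 CPM (SD, n = 5). Against libraries 51 to 55 alone the log2 fold change was -0.08, and against libraries 71 to 75 alone 0.11, and neither passed the test (adjusted p = 0.106 and 0.149 from limma). Libraries 51 to 55 also had higher means than libraries 71 to 75 for NCOA2 (116 and 105 CPM) and NCOA1 (125 and 116 CPM). The same held for NCOR1 (255 and 239 CPM), MED1, NCOA3 and EP300, but not for CREBBP (61.7 and 62.1 CPM). What these library numbers stand for was not stated, and no number series holds both treatments.

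The same R1881 libraries were low for most coregulators. R1881 replicate 6 had the lowest R1881 value of 5 of the 8 genes and R1881 replicate 5 that of 2. In most libraries the deviation of a gene from its group mean followed GC content in one direction or the other, with genes not being independent replicates. Spearman's rho across genes was 0.743 and 0.576 in R1881 replicates 6 and 5 and 0.717 in R1881 + enzalutamide replicate 2. It was -0.572, -0.546 and -0.635 in R1881 replicates 7, 9 and 10, -0.483 and -0.498 in R1881 + enzalutamide replicates 1 and 4, and between -0.237 and 0.213 in the other libraries. The canonical transcripts of the 8 genes had a GC content between 38.8% (NRIP1) and 55.8% (CREBBP). After removal of each library's GC trend, the standard error of NRIP1 fell from 0.060 to 0.031 and its log2 fold change was 0.00, while NCOA1, NCOA2 and NCOA3 were at 0.37, 0.59 and 0.61, CREBBP at 0.21, EP300 at -0.11 and NCOR1 at -0.34. In the plot of fold changes by setting, the p160 genes, CREBBP and NCOR1 stay on their side of 0 throughout.

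**Figure D2:**
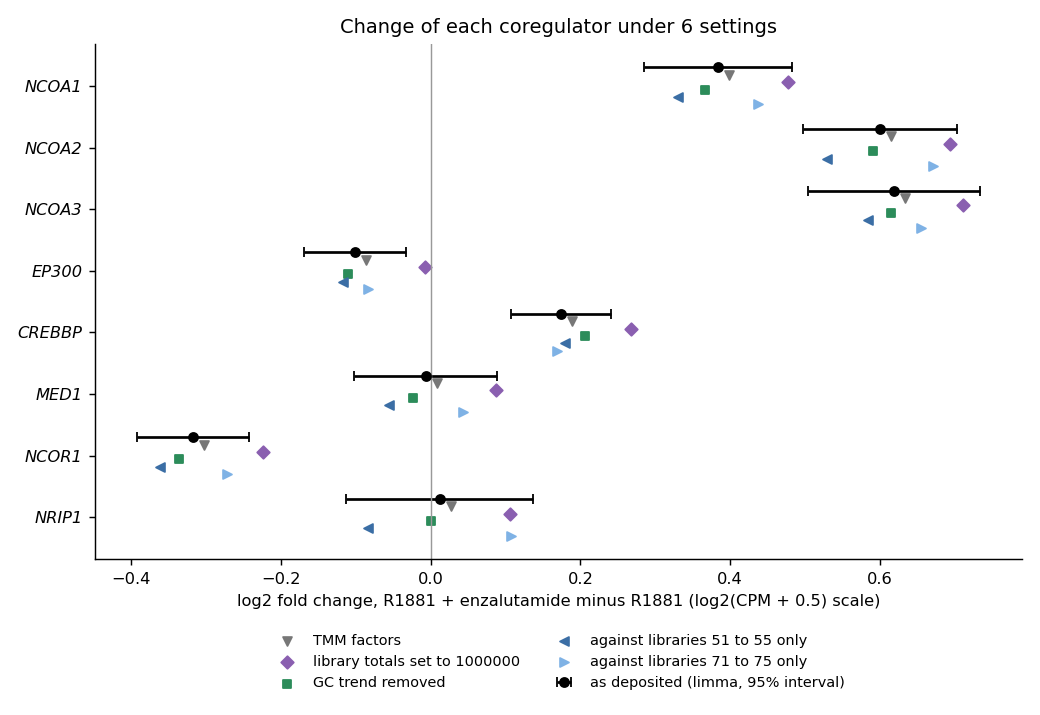
Log2 fold change of each coregulator, R1881 + enzalutamide minus R1881 on the log2(CPM + 0.5) scale (x axis), as deposited (black, with the 95% interval from limma) and under 5 other settings of scaling, GC content or R1881 libraries. NCOA1, NCOA2, NCOA3 and CREBBP lie above 0 and NCOR1 below 0 in each setting, EP300 reaches -0.01 with equal library totals, and MED1 and NRIP1 lie on both sides of 0.

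Ratios of gene pairs within a library do not depend on how libraries are scaled, and were used to test whether related coregulators responded differently. For 5 pairs the log2 ratio was compared between treatments by the same two-sided exact permutation test, with adjustment over the 6 pairs tested. Pairs of other genes were not examined, so no background share of differing pairs is given. For single genes, 62.5% of all genes tested passed the limma test. On the log2 scale the ratio of NCOA1 to NCOA2 was 0.12 ± 0.047 in the 10 R1881 libraries and -0.09 ± 0.037 in the 5 others (mean ± SD), without overlap, so that NCOA2 overtook NCOA1 in read count. The difference of -0.22 (95% interval -0.27 to -0.16, adjusted p = 0.000666 from the exact permutation test) exceeded the spread between libraries. The ratio of NCOA1 to NCOA3 fell by 0.24 (95% interval -0.33 to -0.14, adjusted p = 0.000999, exact permutation test). Its ranges overlapped, with a lowest R1881 value of 1.48 and a highest R1881 + enzalutamide value of 1.53. For NCOA2 and NCOA3 no difference in response passed the test, with a difference of -0.02 and a 95% interval of -0.13 to 0.09 (adjusted p = 0.718, exact permutation test).

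The ratio of EP300 to CREBBP fell in each R1881 + enzalutamide library below that of each R1881 library. On the log2 scale it was 1.01 ± 0.066 in the 10 R1881 libraries and 0.74 ± 0.062 in the 5 others (mean ± SD), a difference of -0.27 (95% interval -0.35 to -0.20, adjusted p = 0.000666, exact permutation test). Between the corepressors, the log2 ratio of NCOR1 to NRIP1 fell from 0.81 ± 0.088 to 0.48 ± 0.107, a difference of -0.33 (95% interval -0.44 to -0.22, adjusted p = 0.000666, exact permutation test).

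**Figure D3:**
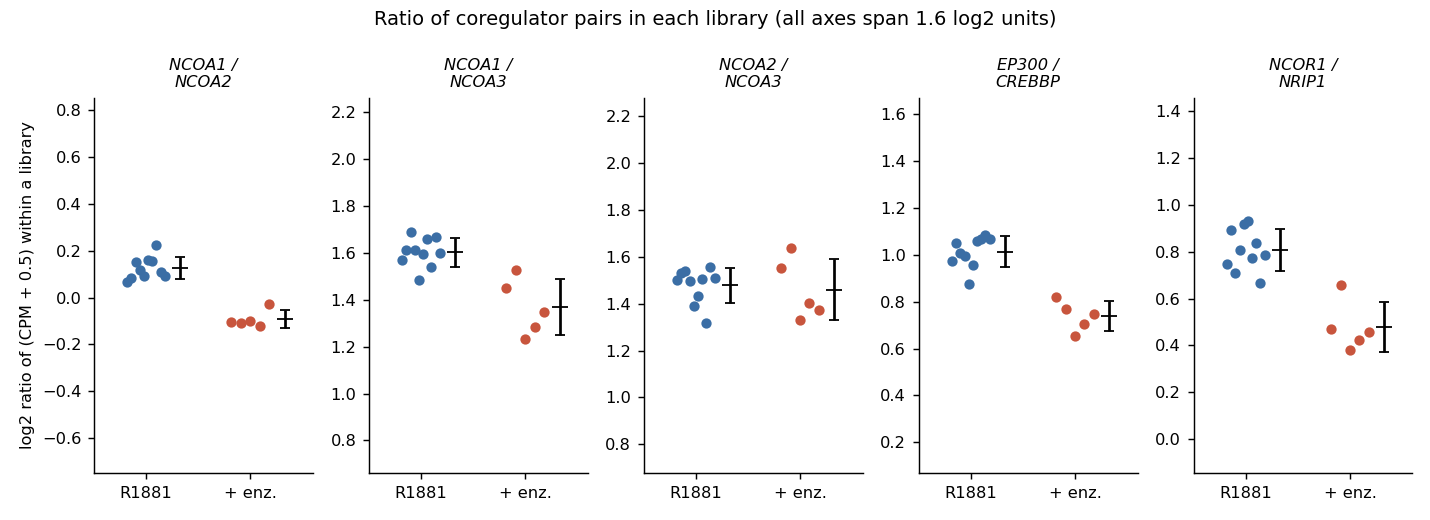
Log2 ratio of (CPM + 0.5) of 5 coregulator pairs within each library (y axis, each spanning 1.6 log2 units) by treatment (x axis), with bars for the mean and SD of 10 R1881 and 5 R1881 + enzalutamide libraries. The ratios of NCOA1 to NCOA2, EP300 to CREBBP and NCOR1 to NRIP1 do not overlap between treatments, while those of NCOA1 to NCOA3 and NCOA2 to NCOA3 overlap.

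Levels of different genes were compared per kb of exon length (the union of the exons of a gene in GENCODE v44). With R1881 the order was NRIP1 (16.6 ± 1.502 CPM per kb), NCOR1 (15.8 ± 0.697), NCOA1 (13.4 ± 0.832), MED1 (12.3 ± 0.731), NCOA2 (11.1 ± 0.750), EP300 (10.7 ± 0.357), NCOA3 (4.68 ± 0.260) and CREBBP (3.999 ± 0.110, SD, n = 10 for each). The ranges over libraries overlapped between NRIP1 and NCOR1, and between neighbours from NCOA1 to EP300. Such ranges ignore that the genes were measured in the same libraries, and differences within a library were not tested. NCOR1 and NCOA1 did not overlap, and NCOA3 and CREBBP lay below all others and apart from each other. With R1881 + enzalutamide NCOA1 (17.6 ± 1.10 CPM per kb) and NCOA2 (16.8 ± 1.05) stood beside NRIP1 (16.7 ± 1.10), and NCOR1 (12.7 ± 0.496) was level with MED1 (12.3 ± 0.702, SD, n = 5 for each). NCOA3 remained the lowest of the p160 genes at 7.24 ± 0.710 CPM per kb (SD, n = 5). Per kb of the canonical transcript NCOR1 came first with R1881, at 23.1 CPM per kb, and CREBBP (5.74) stood above NCOA3 (4.95). On that length NCOR1 (18.5 CPM per kb) was above MED1 (13.0) with R1881 + enzalutamide without overlap, beside NRIP1 at 18.4, and NCOA1 (21.4) was above NRIP1 without overlap.

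**Figure D4:**
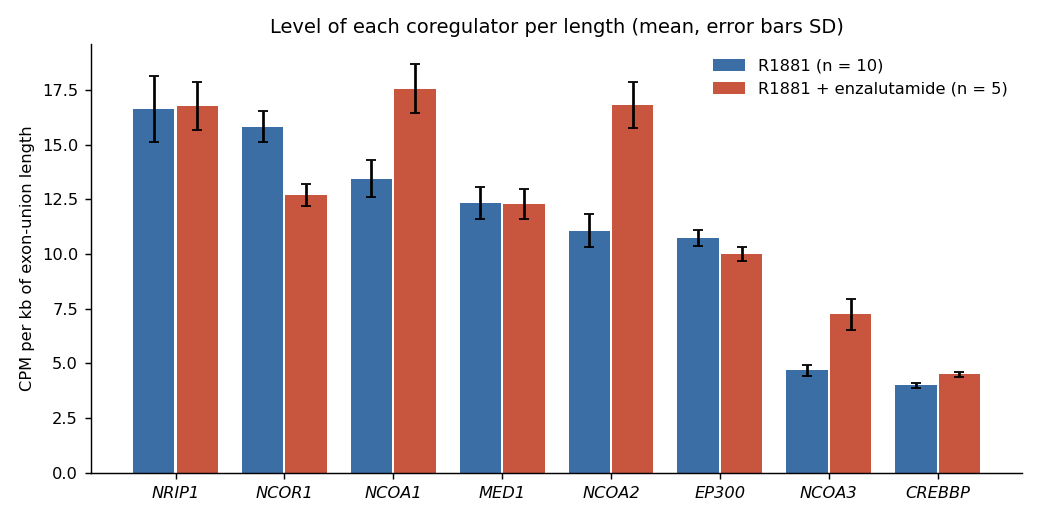
Mean CPM per kb of exon-union length (y axis, starting at 0) of each coregulator with R1881 and with R1881 + enzalutamide, in the order of the R1881 level, with error bars for the SD. NCOA1 and NCOA2 reach the level of NRIP1 with enzalutamide, NCOR1 drops from 15.8 to 12.7, and CREBBP is lowest in both groups.

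Within treatments most coregulators varied together in the values as deposited, except CREBBP, whose r with the 7 others lay between -0.305 and 0.106. Over the 28 pairs of genes, the correlation of deviations from the treatment means had a median Pearson's r of 0.613 (from -0.305 to 0.934, 15 libraries), highest between NCOA2 and MED1 and lowest between CREBBP and MED1. With the GC trend removed the median was 0.359 (from -0.252 to 0.797), NCOA2 and MED1 were still the closest pair, and the r of NCOA3 with NCOA2, EP300, MED1, NCOR1 and NRIP1 was below 0. CREBBP no longer stood apart after that removal, with r between -0.0969 (NCOR1) and 0.649 (NRIP1). These correlations share the depth and base composition of the libraries and are given as a description. Among 12164 genes with a mean of at least 5 CPM, the profile over all 15 libraries closest to NCOA2 was that of the pseudogenes GTF2IP1 and GTF2IP4 (Pearson's r = 0.993 for each), near-identical copies of each other whose counts are uncertain. PRUNE2 and TNKS2 were closest to NCOA1 (0.986 for each), WNK3 (0.984) and SLC41A2 (0.983) to NCOA3, and SETBP1 (0.988) and PSD3 (0.986) to NCOR1. KIAA1683 (0.972) and C11orf95 (0.952) followed CREBBP, and RPL7P21 (0.921) and FEM1C (0.896) followed EP300. FAM20B (0.941) and NUDT3 (0.936) were closest to MED1, and WAC-AS1 (0.940) and NAA50 (0.938) to NRIP1. These r values are the highest of a search and mix the change between treatments with the variation within them. With treatment means removed, r was 0.67 for CREBBP and C11orf95, and 0.93 for NCOA2 and GTF2IP1.

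Partner proteins of the 8 coregulators were examined in lists written from general knowledge. Of 35 other coactivators tested (of 38 listed), 8 were higher and 15 lower by the limma test (22.9% and 42.9%), with a median log2 fold change of -0.07, beside -0.01 over all genes. The highest was NCOA7, at 20.8 ± 1.61 CPM (SD, n = 10) with R1881 alone and 71.2 ± 2.24 CPM (SD, n = 5) with the combination, a log2 fold change of 1.75. The lowest was PIAS1, a SUMO ligase, at -0.89. NCOA4, the cargo receptor for ferritin, fell by 0.29 on the log2 scale, as did PRMT1, an arginine methyltransferase recruited by p160 coactivators (-0.26), and KAT2B, the acetyltransferase PCAF (-0.28). NCOA6 (-0.02) and CARM1 (-0.07), another methyltransferase partner of the p160 proteins, did not pass the test.

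Of 29 other corepressor genes tested (of 30 listed), 9 were higher and 11 lower (31.0% and 37.9%), with a median log2 fold change of -0.04. Within the complex built on NCOR1, its WD40 subunit TBL1X fell by 0.72 on the log2 scale (149 ± 4.30 CPM in the 10 R1881 libraries and 90.7 ± 3.38 CPM in the 5 others, mean ± SD) and its deacetylase HDAC3 by 0.21, whereas TBL1XR1, the paralog of TBL1X, rose by 0.16. GPS2, a further subunit, was lower by 0.31 on the log2 scale (adjusted p = 0.0433 from limma) at a mean of 0.833 CPM with R1881. ZBTB16, the transcriptional repressor PLZF, had the lowest log2 fold change of the list (-1.90) and TLE3, a Groucho corepressor, the highest (1.16).

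Of 32 other Mediator genes, 8 were higher and 10 lower, with a median log2 fold change of -0.05. CDK8, a kinase of the Mediator kinase module, had a mean of 31.8 ± 2.49 CPM (SD, n = 10) with R1881 alone and 113 ± 4.31 CPM (SD, n = 5) with the combination, a log2 fold change of 1.82. CDK19, the paralog of CDK8, rose by only 0.12 on the log2 scale. Its mean over all libraries was 410 CPM, beside 58.9 CPM for CDK8. The cyclin partner CCNC fell by 0.30 on the log2 scale. MED14, a backbone subunit, rose by 0.47 and MED12, which activates the kinase module, by 0.20. The core subunits MED17 and MED24 had log2 fold changes of -0.05 each, which did not pass the test. The direction of these lists depended on the scaling. With all libraries scaled to the same total, 12 coactivators were higher and 10 lower (median log2 fold change 0.02), 12 corepressors higher and 8 lower (0.05), and 9 Mediator genes higher and 6 lower (0.04). Under that scaling PRMT1 and GPS2 did not pass the test (adjusted p = 0.111 and 0.0887 from limma). In the plot of list members, the 8 coregulators lie within the spread of their partner lists.

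**Figure D5:**
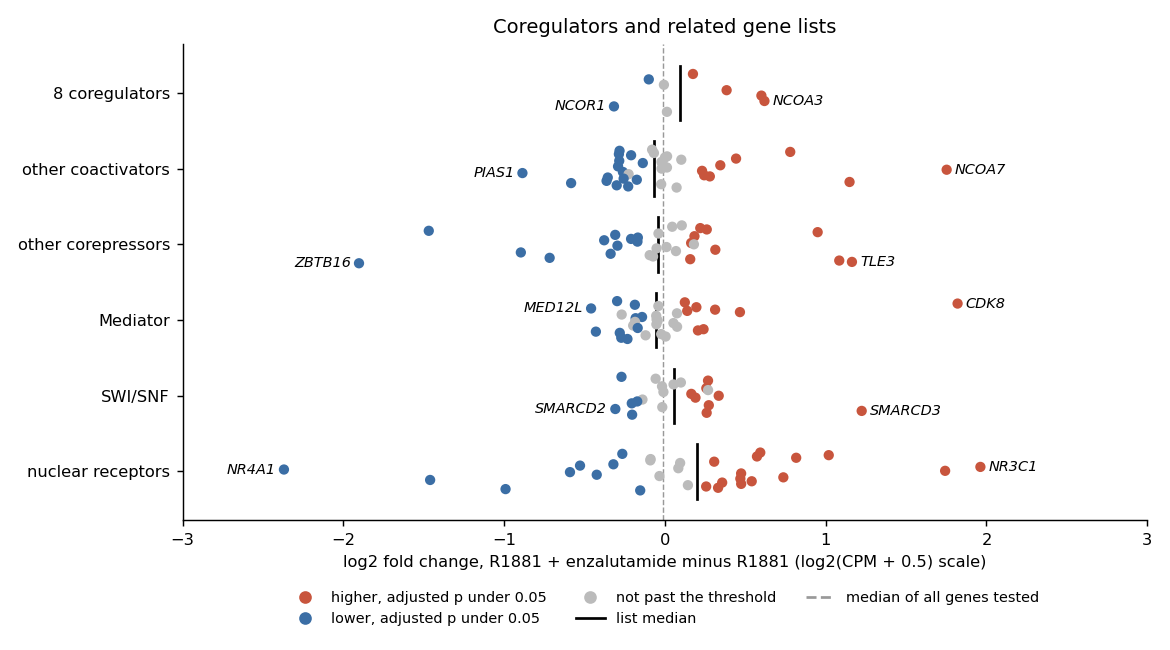
Log2 fold change, R1881 + enzalutamide minus R1881 on the log2(CPM + 0.5) scale (x axis), of the 8 coregulators and of 5 related lists (rows), 1 point per gene, coloured by the limma call at an adjusted p under 0.05, with black lines for list medians and a dashed line for the median of all genes tested (-0.01). NCOA3 is the highest and NCOR1 the lowest of the 8 coregulators, and CDK8, NCOA7 and ZBTB16 lie farther from 0.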

How the data were processed

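Polyadenylated RNA was sequenced from 15 LNCaP libraries, grouped by the sample labels. The methods text gives the group sizes the other way round. Per the labels, bcl2fastq 2.17 was used, and alignment was with STAR (GRCh38) and counting with featureCounts. The signal deposited by the authors is a normalized value per gene, called CPM in the methods. Annotation, strand setting, gene filter and library scaling were not stated. All values (100%) were whole multiples of 1 read within 0.01 reads, and no 2 libraries of a treatment agreed within counting noise (55 pairs, lowest chi-square over degrees of freedom 1.64).

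Genes were tested with limma 3.58.1 in R 4.3.3 (mean-variance trend, log2(CPM + 0.5), mean of at least 0.5, treatment as the only term, threshold 0.05). The script was tested on simulated data. Counts tests on recovered reads (edgeR 4.0.16, DESeq2 1.42.0), scaling, pseudocount, filter, GC content (available for 80.8% of genes), R1881 series, replicate number and single libraries were varied. Intervals of pair ratios invert the permutation test, and 1 of the 6 pairs tested is not reported here. The members and lists were chosen with earlier results of these data known. Genes named are the 8 coregulators, partners picked by role, the highest and lowest called gene of each list at a mean of at least 5 CPM, and the 2 closest profiles per coregulator. TTC19, PIGL, the NCOR1 pseudogenes, LUM and CDK19 were named after their values were seen. Positions are from GENCODE v44 on GRCh38. P-values measure the spread between these libraries.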

Additional observations from a re-analysis of the deposited data

Results flagged for a closer look

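Over 28 groups of 5 or 10 values (genes and pair ratios by treatment), 3 held a library far from the others, where chance gives about 1.4. EP300 in R1881 replicate 5 was 114.5 CPM, with the next R1881 library at 124.1 CPM. EP300 in R1881 + enzalutamide replicate 3 was 110.3 CPM, with the next library at 117.9 CPM. The log2 ratio of NCOA1 to NCOA2 in R1881 + enzalutamide replicate 5 was -0.026, and the other libraries of its group lay between -0.12 and -0.10.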

How the results depend on the processing

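The increases of NCOA1, NCOA2, NCOA3 and CREBBP and the decrease of NCOR1 kept their direction and their call under all alternatives run. EP300 was not called with equal library totals (-0.0072), by edgeR (-0.057), with a replicate block on the number in the titles (-0.083) or against R1881 libraries 71 to 75 alone (-0.083), so that 1 coregulator was then called lower. MED1 changed sign with median-ratio factors (0.0034), TMM factors (0.0083), equal library totals (0.087), edgeR (0.037), DESeq2 (0.0069) and R1881 libraries 71 to 75 alone (0.043), and NRIP1 with R1881 libraries 51 to 55 alone (-0.083) and without the 3 libraries with the highest positive correlation with GC content (-0.0011, chosen after seeing the data), none of them called. The difference between NCOA2 and NCOA3 was 0.017 against libraries 71 to 75 alone. The causes were not tested. Leaving out single libraries, the log2 fold change stayed between -0.115 and -0.079 for EP300, -0.032 and 0.015 for MED1 and -0.015 and 0.052 for NRIP1, the pair difference between -0.063 and 0.013 for NCOA2 and NCOA3, and 1 or 2 coregulators were called lower. The replicate block on the titles changed no other call. Same-numbered libraries did not deviate together (r from -0.068 to 0.074), and 0 of 5 R1881 + enzalutamide libraries correlated best with their own number (2 of 5 by the last digit of the library number). Genes called ranged from 8297 (mean of at least 5 CPM) to 11070 (without the 3 libraries with the highest positive correlation with GC content), beside 10660, and with equal library totals there were 6641 higher and 4288 lower, beside 5083 and 5577. Reads per coregulator were at least 570 in each library. With the GC trend removed, the standard error fell from 0.060 to 0.031 for NRIP1, from 0.049 to 0.029 for NCOA2 and from 0.046 to 0.027 for MED1.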

Other observations

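Among 30 nuclear receptors tested, which the coregulators serve, 15 were higher and 9 lower with the combination by the limma test at an adjusted p under 0.05 (50.0% and 30.0%, beside 29.8% and 32.7% of all genes), with a median log2 fold change of 0.20, beside -0.01 over all genes. NR3C1, the glucocorticoid receptor, was at 0.141 ± 0.048 CPM with R1881 and 2.01 ± 0.353 CPM with the combination. It met the required mean of 0.5 CPM only through the R1881 + enzalutamide libraries, so its call follows in part from the filter. NR4A2, at a mean of 0.90 CPM over all libraries, was also near that limit. Both count among the 15 receptors called higher. NR4A1, an orphan receptor induced by many stimuli, had the lowest log2 fold change (-2.37), and NR1D2, a clock receptor that represses through NCOR1, the highest of those with a mean of at least 5 CPM (0.82).

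Of 21 SWI/SNF chromatin remodeling genes, 8 were higher and 5 lower (38.1% and 23.8%, beside the same 29.8% and 32.7% of all genes), with a median log2 fold change of 0.05. The subunit SMARCD3 rose by 1.22 on the log2 scale, whereas its paralog SMARCD2 fell by 0.31, and the difference between them was not tested. The ATPase SMARCA4 (-0.14, adjusted p = 0.0574 from limma) and ARID1A (-0.06, adjusted p = 0.121 from limma) did not pass the test.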
